A study of Mus musculus and Homo sapiens with 14 samples.

Results

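RN2c leukemia cells carrying 1 of 2 guide RNAs against Sik3 were set against the same cells carrying a control guide to the Rosa26 locus, using 4 of the 14 libraries of the series. The 4 were taken by their labels and by the table in which they were deposited, and the 10934 genes whose value averaged 10 or more across them were described. RN2c is the mouse acute myeloid leukemia RN2, driven by the MLL-AF9 fusion and mutant Nras, with Cas9 added. All libraries of RN2c therefore share the leukemia, its oncogenes and Cas9. The sgSik3 group held a library of guide e1 and a library of guide e3, and the sgRosa26 group held 2 libraries, called sgRosa26 1 and sgRosa26 2 here. A direct comparison of knockouts, given last, also used 2 libraries of RN2c cells with a guide to Mef2c (sgMef2c). Guides were delivered by lentivirus and cells were collected on day 2 after infection, a time at which a culture can still hold unedited cells. The labels name neither a clone nor a mouse, nor do they say that the libraries were grown apart, so p-values here rest on a spread that may be only technical. Each Sik3 guide had 1 library, so the spread within the sgSik3 group also includes the difference between guides.

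SIK3 is a salt-inducible kinase, a relative of AMPK that is switched on by the kinase LKB1 and switched off through cAMP and protein kinase A. Its best known substrates are the CRTC coactivators of CREB and the class IIa histone deacetylases, which it holds in the cytoplasm by phosphorylation. Class IIa deacetylases in the nucleus repress the MEF2 transcription factors, and MEF2C is a factor on which MLL-rearranged leukemia depends.

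The deposited values are read counts divided by a size factor per library, here called normalized values. Whole reads could be recovered from them, 21538305 and 19065348 for guides e1 and e3 and 21655048 and 20607377 for the control libraries. Most listed markers of blasts and myeloid progenitors were high in every library, among them Ptprc, Spi1, Kit, Myb, Hoxa9, Meis1, Itgam and Cd34. Flt3, of the same list, was low in every library. Defining markers of red cells (Hba-a1, Hbb-bs), T cells (Cd3e, Cd4, Cd8a), platelets (Pf4, Gp6), mast cells (Mcpt4, Tpsb2, Fcer1a) and stroma (Col3a1, Dcn, Kdr) were at 0 in all 4. Other genes of the same lists were expressed, among them Itgb3 of the platelet list, Hdc, Gata2, Cpa3 and Ms4a2 of the mast cell list, and Pecam1 and Pdgfrb of the stroma list. In bulk RNA, fewer cells of a type and less RNA per cell cannot be told apart.

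Sik3 itself, on chromosome 9 from 46012820 to 46224194 in GRCm38, had 1219 and 1169 with sgSik3, against 1939 and 1878 with sgRosa26. Both knockout libraries lay below both controls (log2 fold change -0.68, SE 0.05, limma adjusted p = 5.7e-06). Where each guide cuts is not given in the sources used here, and reads summed over a gene do not measure the share of edited cells or the protein. Of the 10934 genes, 5226 (47.8%) passed the limma test at an adjusted p of 0.05, and 2611 (23.9%) rose and 2615 (23.9%) fell. Leaving out guide e1 left 3585 calls and leaving out guide e3 left 3621. Most of these changes were small. The median absolute log2 fold change over all genes was 0.18, with a median SE of 0.06, and the median signed value was -0.00054. Changes past the test and over 2-fold numbered 415 (3.8%), 250 upward (2.29%) and 165 downward (1.51%). The sgSik3 and sgRosa26 libraries did not overlap in 8221 genes (75.2%), so lack of overlap by itself says little about a gene.

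The guides were compared as single libraries against the control mean. Guide e1 put 262 genes over 2-fold above the controls and guide e3 put 266, of which 218 were shared, 83.2% of the e1 genes and 82.0% of the e3 genes. In the other direction, e1 gave 185 and e3 gave 193, with 128 shared, 69.2% of the e1 genes and 66.3% of the e3 genes. Between the 2 guides the median absolute log2 difference was 0.058, against 0.071 between the 2 control libraries. Among 9895 genes with a mean of at least 50, 0 differed over 2-fold between the guides (0.0%) and 18 did between the controls.

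**Figure D1:**
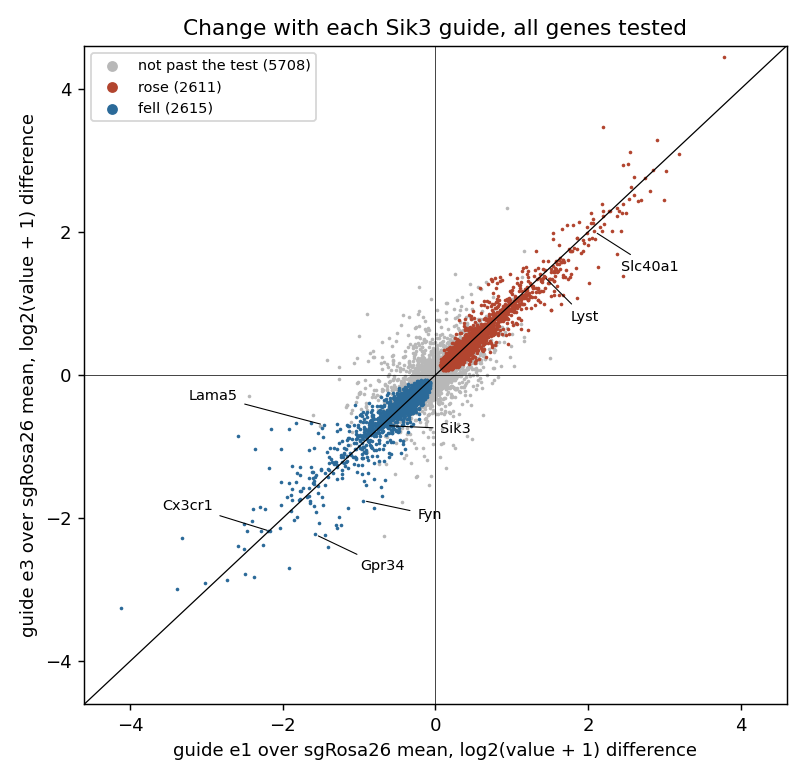
Change of each tested gene with guide e1 (horizontal) and guide e3 (vertical), both as log2(value + 1) minus the sgRosa26 mean. Red points rose and blue points fell in the limma test, grey points did not pass, and the line marks equal change. Points of called genes lie along the line, and Sik3 sits close to it, at -0.65 with e1 and -0.71 with e3. The limma test favors genes whose guides lie close together, and both axes subtract the same control mean. The position of called genes therefore does not measure how well the guides agree.

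Genes that follow the 10 largest changes in each direction, ranks 11 to 25, are given here by what they encode. Only called genes with a mean of at least 50 and groups that do not overlap were ranked. Rises that encode secreted or calcium-binding proteins come first. S100a8, a subunit of calprotectin, had 51575 and 47633 with sgSik3, against 9628 and 9869.7 with sgRosa26 (log2 fold change 2.35, SE 0.04). S100a9, its partner subunit, had 43598 and 39242 with sgSik3, against 7890.3 and 8925 with sgRosa26 (log2 fold change 2.30, SE 0.06). These were the highest values in this set, and both guides were far above the controls in both genes. C3, the central complement protein, had 17388 and 16278 with sgSik3, against 3272 and 4339 with sgRosa26 (log2 fold change 2.16, SE 0.10). Chil3, a chitinase-like protein of myeloid cells with close paralogs, had 919 and 866 with sgSik3, against 171 and 248 with sgRosa26 (log2 fold change 2.11, SE 0.15). Lrg1, a leucine-rich glycoprotein of neutrophil granules, had 154 and 179 with sgSik3, against 31.04 and 42.9 with sgRosa26 (log2 fold change 2.15, SE 0.19). Il1rn, the interleukin-1 receptor antagonist, had 900.0 and 896 with sgSik3, against 205 and 248 with sgRosa26 (log2 fold change 1.99, SE 0.10). The 2 sgSik3 values of Il1rn were almost equal. Serpina11, a serpin of the antitrypsin cluster, had 115 and 119 with sgSik3, against 27.3 and 25.9 with sgRosa26 (log2 fold change 2.09, SE 0.18). Receptors and transporters followed. Slc40a1, ferroportin, the iron exporter, had 2537 and 2414 with sgSik3, against 559.7 and 641 with sgRosa26 (log2 fold change 2.04, SE 0.07). Slc2a3, the glucose transporter GLUT3, had 162 and 121 with sgSik3, against 19.8 and 42.9 with sgRosa26 (log2 fold change 2.22, SE 0.32). In Slc2a3 the control libraries differed over 2-fold from each other. Prom1, the membrane protein CD133, had 674 and 627 with sgSik3, against 151 and 183 with sgRosa26 (log2 fold change 1.96, SE 0.11). Clec4n, the lectin Dectin-2, had 87.6 and 108.1 with sgSik3, against 15.99 and 36.9 with sgRosa26 (log2 fold change 1.95, SE 0.34). Nlrp12, a NOD-like receptor that restrains inflammation, had 243 and 258 with sgSik3, against 62.1 and 54.8 with sgRosa26 (log2 fold change 2.08, SE 0.13). The remaining members were enzymes and a transcription factor. Ces1d, a carboxylesterase, had 594 and 526 with sgSik3, against 89.4 and 132 with sgRosa26 (log2 fold change 2.35, SE 0.17). Hao1, a peroxisomal hydroxyacid oxidase of liver, had 1573 and 1661 with sgSik3, against 332 and 472 with sgRosa26 (log2 fold change 2.03, SE 0.13). Ikzf3, the Ikaros family factor Aiolos, had 138 and 122 with sgSik3, against 24.5 and 35.9 with sgRosa26 (log2 fold change 2.10, SE 0.22). Across the called genes named here, limma gave an adjusted p from 5.5e-09 to 0.0014. Lack of overlap of the groups was a condition of the ranking.

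Falls at ranks 11 to 25 are given in the same way, receptors first. Cx3cr1, the fractalkine receptor of monocytes, had 136 and 134 with sgSik3, against 625 and 602 with sgRosa26 (log2 fold change -2.17, SE 0.09). Ccr2, the receptor for the monocyte chemoattractant CCL2, had 1135 and 1192 with sgSik3, against 3082 and 4128 with sgRosa26 (log2 fold change -1.62, SE 0.11). Gpr34, a lysophosphatidylserine receptor, had 26.3 and 16.4 with sgSik3, against 74.3 and 86.8 with sgRosa26 (log2 fold change -1.90, SE 0.26). With Gpr34 the guides stood apart, e1 above e3, and both lay below both controls. Hcar2, the niacin receptor, had 28.2 and 31.7 with sgSik3, against 98.8 and 99.7 with sgRosa26 (log2 fold change -1.70, SE 0.18). Itgb7, an integrin beta chain of gut-homing leukocytes, had 323 and 317 with sgSik3, against 875 and 1189 with sgRosa26 (log2 fold change -1.67, SE 0.12). Pcdh7, a protocadherin, had 1969 and 2021 with sgSik3, against 6277 and 7315 with sgRosa26 (log2 fold change -1.76, SE 0.06). Cdh17, a cadherin of the intestine, had 146 and 183 with sgSik3, against 418 and 642 with sgRosa26 (log2 fold change -1.66, SE 0.19). Pcdh7 was the most abundant of these receptors and adhesion genes in all 4 libraries. Phlpp2, a phosphatase of AKT, had 392 and 455 with sgSik3, against 1498 and 1422 with sgRosa26 (log2 fold change -1.79, SE 0.08). Nlrc3, a NOD-like receptor that restrains innate signaling, had 32.1 and 29.5 with sgSik3, against 103 and 102 with sgRosa26 (log2 fold change -1.71, SE 0.18). Dab2, an endocytic adaptor and marker of macrophages, had 101 and 145 with sgSik3, against 514 and 555 with sgRosa26 (log2 fold change -2.13, SE 0.15). Abcb1b encodes a P-glycoprotein drug pump and has a close paralog, Abcb1a. Abcb1b had 164 and 189.9 with sgSik3, against 633 and 713 with sgRosa26 (log2 fold change -1.92, SE 0.10). Dse, a dermatan sulfate epimerase, had 66.2 and 80.8 with sgSik3, against 236 and 256 with sgRosa26 (log2 fold change -1.74, SE 0.14). Tsc22d1, a leucine zipper protein induced by TGF-beta, had 63.2 and 53.5 with sgSik3, against 167 and 220.4 with sgRosa26 (log2 fold change -1.71, SE 0.17). Prrg4, a transmembrane Gla protein, had 26.3 and 33.8 with sgSik3, against 106 and 152 with sgRosa26 (log2 fold change -2.05, SE 0.22), and Lhfp, a tetraspan protein, had 39.9 and 57.9 with sgSik3, against 151 and 181 with sgRosa26 (log2 fold change -1.76, SE 0.20). In limma the adjusted p lay between 2.3e-07 and 3.5e-04 for the called genes of this set, ranked under the same condition of no overlap.

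**Figure D2:**
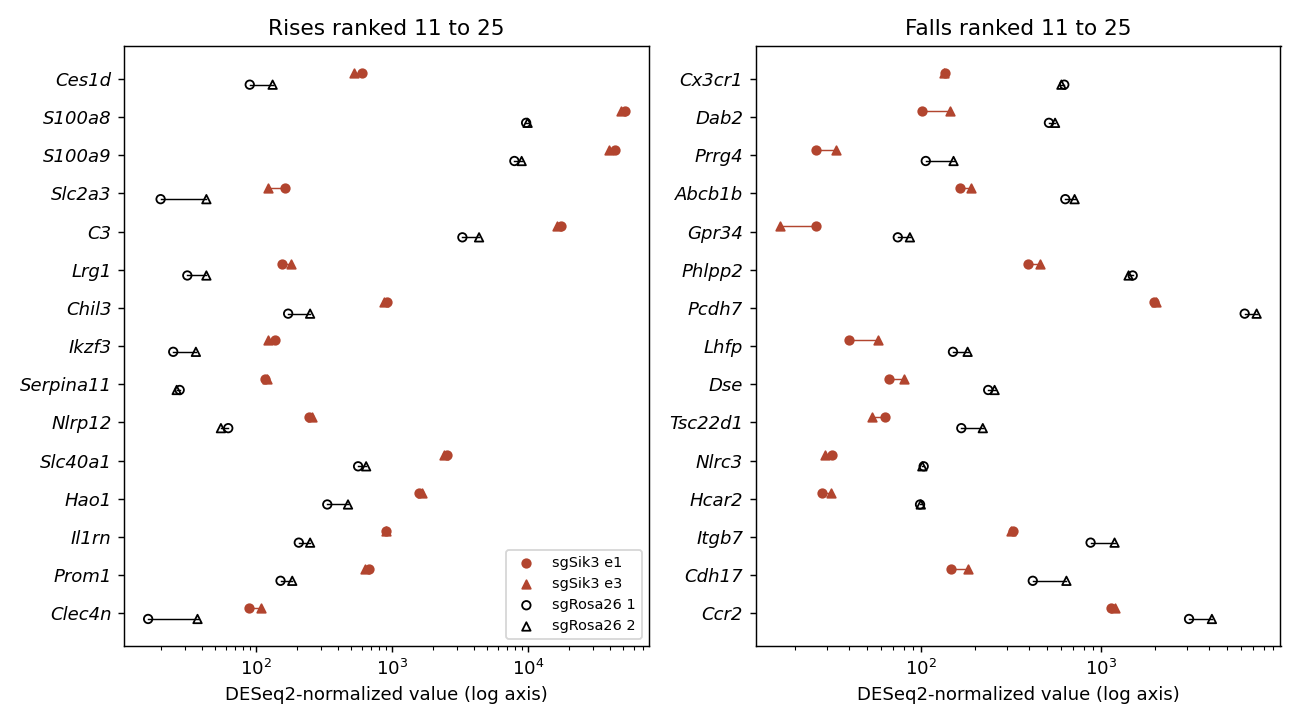
Normalized values, on a log axis, of the rises (left) and falls (right) ranked 11 to 25, for the sgSik3 libraries in red and the sgRosa26 libraries in black, circles for e1 or sgRosa26 1 and triangles for e3 or sgRosa26 2. Genes run from Ces1d and S100a8 at the top left to Ccr2 at the bottom right. No red pair overlaps its black pair because only genes without overlap were ranked.

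The promoters of Hao1, Dab2 and Ghr are shown because each of these genes changed over 2-fold and its promoter holds the MEF2 consensus, in capitals. Ghr, the growth hormone receptor, had 21.4 and 17.5 with sgSik3, against 102 and 155 with sgRosa26 (log2 fold change -2.63, SE 0.24, limma adjusted p = 3.5e-05). The RefSeq promoters run from 250 bases before to 50 after a start site, 5′ to 3′ on the gene's strand in GRCm38.p6, and lie at chr2:134554303-134554602, minus strand for Hao1, at chr15:6299539-6299838, plus strand for Dab2 and at chr15:3581793-3582092, minus strand for Ghr. The MEF2 consensus stood in 8 of 163 promoters of genes that fell over 2-fold (4.91%), in 3 of 239 of genes that rose over 2-fold (1.26%) and in 161 of 10872 over all tested genes (1.48%), on either strand. A gene can have several promoters in the table, and a match is a run of letters, not a bound site.
Hao1: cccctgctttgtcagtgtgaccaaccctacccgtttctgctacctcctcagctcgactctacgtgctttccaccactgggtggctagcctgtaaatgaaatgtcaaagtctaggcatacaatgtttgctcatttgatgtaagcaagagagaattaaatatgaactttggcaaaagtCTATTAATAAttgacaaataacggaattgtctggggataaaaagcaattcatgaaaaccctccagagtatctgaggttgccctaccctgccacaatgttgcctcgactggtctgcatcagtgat
Dab2: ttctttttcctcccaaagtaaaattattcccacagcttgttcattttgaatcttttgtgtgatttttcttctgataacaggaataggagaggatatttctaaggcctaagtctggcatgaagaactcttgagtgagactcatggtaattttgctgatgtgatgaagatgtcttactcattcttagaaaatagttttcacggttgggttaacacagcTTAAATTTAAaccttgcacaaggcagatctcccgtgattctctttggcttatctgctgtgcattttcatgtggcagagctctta
Ghr: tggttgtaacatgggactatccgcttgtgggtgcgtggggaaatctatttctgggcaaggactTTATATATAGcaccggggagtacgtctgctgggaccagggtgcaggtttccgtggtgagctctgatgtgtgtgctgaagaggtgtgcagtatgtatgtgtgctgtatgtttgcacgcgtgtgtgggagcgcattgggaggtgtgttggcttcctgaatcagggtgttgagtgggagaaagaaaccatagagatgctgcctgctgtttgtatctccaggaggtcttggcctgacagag

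The rest of the response was read through 34 lists of pathways and gene families, each counted against the 23.9% of all tested genes that rose and the 23.9% that fell. Together with the marker lists they matched 1802 symbols, of which 1411 were tested. Most changes in these lists were below 2-fold. No test was run on a list as a whole.

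**Figure D3:**
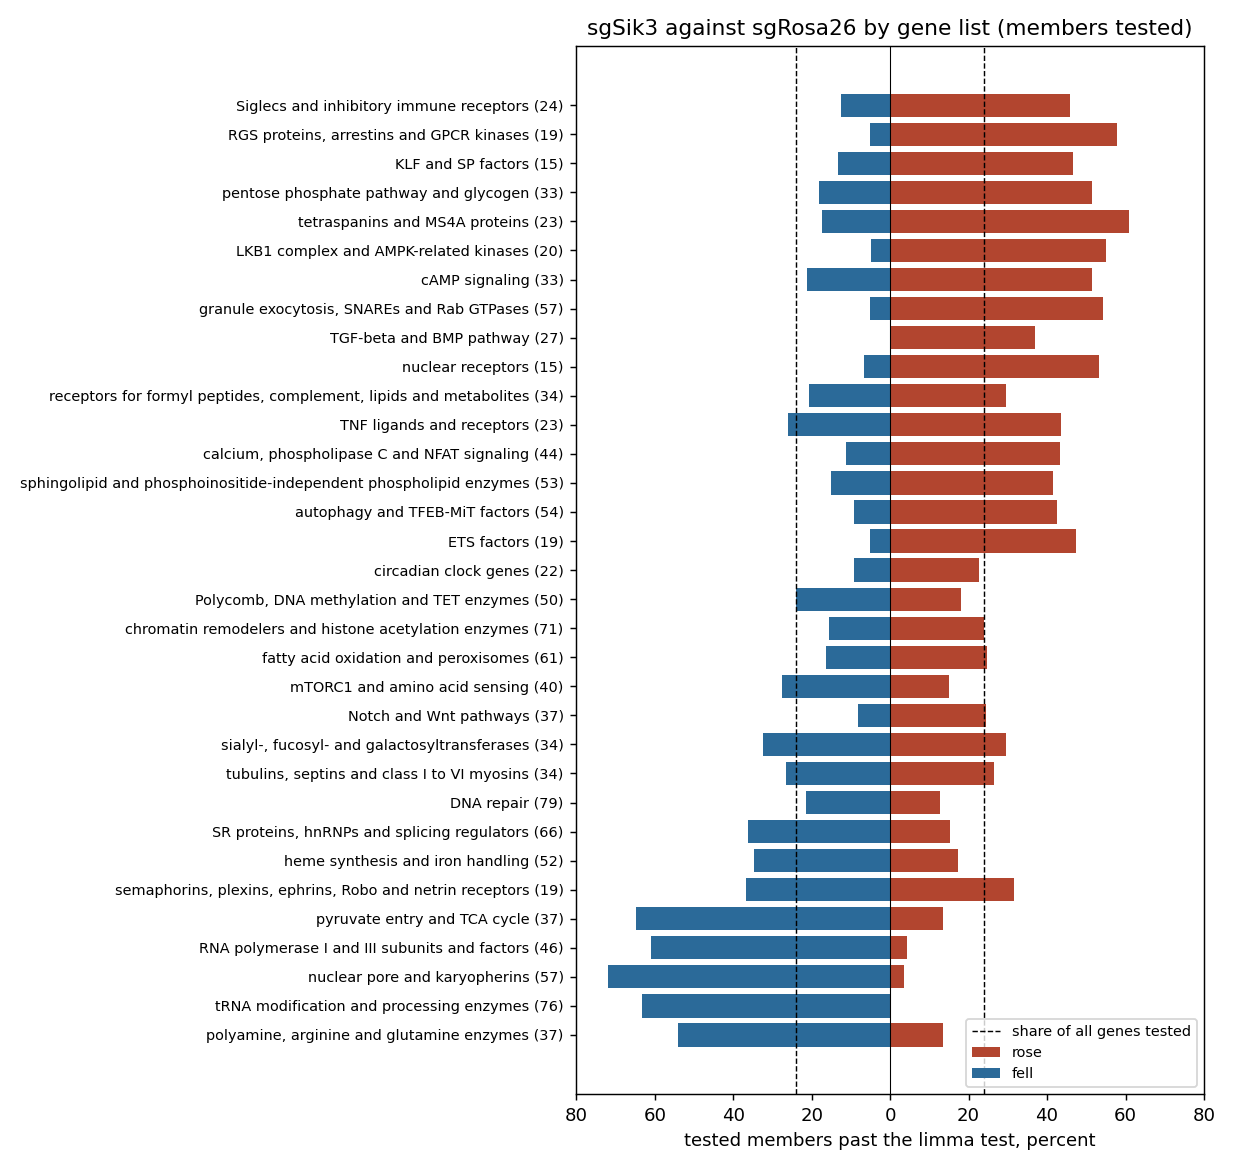
Percent of tested members of each list described that fell (blue, left of 0) or rose (red, right of 0) in the limma test, with the number of members tested in brackets and lists ordered by median log2 fold change. Dashed lines mark 23.9%, the share of all tested genes in either direction. Nuclear pore, tRNA modification, RNA polymerase I and III, polyamine and TCA cycle lists extend furthest to the left, with few members on the right.

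Signaling lists upstream of SIK3 and around it were mostly above the background share of rises. In the LKB1 complex with the AMPK-related kinases, 11 of 20 tested members rose and 1 fell, with a median log2 fold change of 0.19. Sik3 itself, an AMPK-related kinase that fell (log2 fold change -0.68), was not in this list. Stk11, which encodes LKB1, had 4072 and 4116 with sgSik3, against 3599.9 and 3601 with sgRosa26 (log2 fold change 0.19, SE 0.03). Cab39, the scaffold that activates LKB1, had 8867 and 8858 with sgSik3, against 7549 and 7569 with sgRosa26 (log2 fold change 0.23, SE 0.03). Sik2, a paralog of Sik3, had 976 and 962 with sgSik3, against 708 and 681 with sgRosa26 (log2 fold change 0.48, SE 0.05). Prkab1, a beta subunit of AMPK, changed by 0.29 on the log2 scale. All 4 were higher with both guides than in either control. For cAMP signaling, 17 of 33 tested members rose and 7 fell, with a median log2 fold change of 0.17, and the movers included enzymes that make and that degrade cAMP. Adcy2, an adenylyl cyclase, had 484 and 522 with sgSik3, against 211 and 206 with sgRosa26 (log2 fold change 1.26, SE 0.09). Pde2a, a phosphodiesterase for cAMP and cGMP, had 4468 and 4489 with sgSik3, against 2443 and 2616 with sgRosa26 (log2 fold change 0.82, SE 0.04). Pde4b, a phosphodiesterase of cAMP, had 674 and 623 with sgSik3, against 328 and 333 with sgRosa26 (log2 fold change 0.97, SE 0.07). Gnas, the stimulatory G protein alpha subunit, went the other way, with 9422 and 9671 with sgSik3, against 13583 and 13698 with sgRosa26 (log2 fold change -0.51, SE 0.03). Regulators that end receptor signaling followed, and 11 of 19 tested members rose and 1 fell, with a median log2 fold change of 0.27 for RGS proteins, arrestins and receptor kinases. Arrb2, an arrestin, had 5059.5 and 5156 with sgSik3, against 3451 and 3437 with sgRosa26 (log2 fold change 0.57, SE 0.03). Rgs1, an RGS protein of leukocytes, was the only member of this list that fell and its only change over 2-fold. It had 19.5 and 10.9 with sgSik3, against 53.6 and 107.7 with sgRosa26 (log2 fold change -2.30, SE 0.37). Rgs5, which is not in this list, rose over 2-fold (log2 fold change 1.53) and is given below with the symbol stems. Rgs1 was chosen after its values were seen. The log2 fold change was 0.44 for the other arrestin Arrb1, 0.69 for Gpsm3, a modulator of Gi proteins, and 0.32 for Adrbk1, the receptor kinase GRK2. In calcium, phospholipase C and NFAT signaling, 19 of 44 tested members rose and 5 fell, with a median log2 fold change of 0.13. Plcb2, a phospholipase C activated by G proteins, had 7881 and 8234 with sgSik3, against 4738 and 5328 with sgRosa26 (log2 fold change 0.68, SE 0.05). Log2 fold changes were 0.59 for Prkcb, a protein kinase C, 0.51 for Stim1, the calcium sensor of the endoplasmic reticulum, and 0.57 for Atp2a3, the calcium pump SERCA3. The mTORC1 list lay below the background for rises and near it for falls, as 6 of 40 tested members rose and 11 fell, with a median log2 fold change of -0.01. Mios, a GATOR2 subunit, had 634 and 679 with sgSik3, against 1032 and 1009 with sgRosa26 (log2 fold change -0.64, SE 0.06). Eif4ebp1, the repressor of eIF4E, changed by -0.34 on the log2 scale, Lamtor2, a Ragulator subunit, by 0.35 and Gatsl2, a homolog of the arginine sensor CASTOR1, by 0.46. The limma adjusted p of the called genes among these ran from 1.4e-06 to 0.0018, and in each the sgSik3 and sgRosa26 libraries did not overlap. 0 LKB1-list falls, 3 calcium falls, 2 mTORC1 rises and 3 mTORC1 falls were called without guide e1. 0 LKB1-list falls, 3 calcium falls and 7 mTORC1 falls were called without guide e3.

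Cell surface lists held the larger changes. Among Siglecs and inhibitory immune receptors, 11 of 24 tested members rose and 3 fell, with a median log2 fold change of 0.27. Here 6 rose over 2-fold and 1 fell over 2-fold, against 2.29% and 1.51% of all tested genes. Cd33, a sialic acid receptor and the target of antibody therapy in human leukemia, had 14092 and 14255 with sgSik3, against 5974 and 6266 with sgRosa26 (log2 fold change 1.21, SE 0.03). Ceacam1, an inhibitory adhesion receptor, had 3238 and 3521 with sgSik3, against 1153 and 1173 with sgRosa26 (log2 fold change 1.54, SE 0.05). Clec4a2, an inhibitory lectin receptor with close paralogs, had 2578 and 2404 with sgSik3, against 785 and 944 with sgRosa26 (log2 fold change 1.53, SE 0.08). Pilrb2, a paired receptor whose reads may be shared with its near copies, had 1024 and 1059 with sgSik3, against 478 and 519 with sgRosa26 (log2 fold change 1.06, SE 0.06). Cd33 was the most abundant of the 4 in every library. Receptors for formyl peptides, complement, lipids and metabolites went both ways, as 10 of 34 tested members rose and 7 fell, with a median log2 fold change of 0.15, and 6 rose and 4 fell over 2-fold. Ltb4r1, the leukotriene B4 receptor, had 1397 and 1228 with sgSik3, against 465 and 545 with sgRosa26 (log2 fold change 1.38, SE 0.09). Ffar2, a receptor for short-chain fatty acids, had 105 and 102 with sgSik3, against 29.2 and 28.9 with sgRosa26 (log2 fold change 1.80, SE 0.18). Gpr84, a receptor for medium-chain fatty acids, had 439.8 and 475 with sgSik3, against 712 and 671 with sgRosa26 (log2 fold change -0.60, SE 0.07). Hcar2 and Gpr34, given above among the falls, belong to the same list. In tetraspanins and MS4A proteins, 14 of 23 tested members rose and 4 fell, with a median log2 fold change of 0.20. Cd82, a tetraspanin, had 1266 and 1322 with sgSik3, against 795 and 755 with sgRosa26 (log2 fold change 0.74, SE 0.05). Cd63, the tetraspanin of granules and lysosomes, had 11883 and 11407 with sgSik3, against 7722 and 8310.0 with sgRosa26 (log2 fold change 0.54, SE 0.04). The log2 fold change was 0.50 for Ms4a3, a membrane protein of granulocyte and monocyte progenitors, and 1.08 for Ms4a6b, which has near copies. For TNF ligands and receptors, 10 of 23 tested members rose and 6 fell, with a median log2 fold change of 0.14. Tnf, the cytokine itself, had 359 and 355 with sgSik3, against 586 and 515 with sgRosa26 (log2 fold change -0.62, SE 0.08). Tnfrsf14, the receptor HVEM, had 625 and 683 with sgSik3, against 313 and 348 with sgRosa26 (log2 fold change 0.98, SE 0.08). Tnfrsf26, a decoy receptor of the mouse, and Tnfrsf21, the death receptor DR6, had log2 fold changes of 0.66 and 0.40. Across the called genes named here, limma gave an adjusted p from 9.2e-08 to 3.0e-04, with no overlap of the groups. 2 tetraspanin falls and 2 TNF-list falls were called without guide e1. 2 tetraspanin falls were called without guide e3. 5 Siglec-list falls were called without sgRosa26 1.

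The Cd33 promoter is shown because Cd33 had the lowest p of the Siglec list, in which the PU.1 motif was most frequent. PU.1, encoded by Spi1, is the ETS factor that drives myeloid genes. The motif searched, GAGGAAG on either strand, stood in 8 of 17 promoters of that list (47.1%), in 49 of 239 of all genes that rose over 2-fold (20.5%) and in 1492 of 10872 over all tested genes (13.7%). In genes that fell over 2-fold it stood in 27 of 163 promoters (16.6%), also above the share of all tested genes. Among all genes that rose the share was 15.9%, and among those that fell it was 12.7%. The window lies at chr7:43533122-43533421, minus strand, in GRCm38.p6 from RefSeq, with the motif in capitals.
Cd33: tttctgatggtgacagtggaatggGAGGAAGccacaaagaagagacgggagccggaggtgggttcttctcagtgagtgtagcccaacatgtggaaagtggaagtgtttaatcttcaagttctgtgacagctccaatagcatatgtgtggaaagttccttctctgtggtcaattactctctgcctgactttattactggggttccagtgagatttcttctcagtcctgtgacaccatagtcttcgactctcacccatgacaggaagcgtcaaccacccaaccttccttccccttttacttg

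Semaphorins, plexins, ephrins, Robo and netrin receptors split by member. Of 19 tested members, 6 rose and 7 fell, with a median log2 fold change of -0.13. Here 4 fell over 2-fold and 0 rose over 2-fold, against 1.51% and 2.29% of all tested genes. Sema4a, a membrane semaphorin, had 4124 and 4219 with sgSik3, against 2608 and 2526 with sgRosa26 (log2 fold change 0.70, SE 0.04). Sema4d, a membrane semaphorin that binds plexin B receptors, had 868 and 855 with sgSik3, against 1415 and 1334 with sgRosa26 (log2 fold change -0.67, SE 0.05). Plxnb2, a plexin B receptor, had 229.6 and 259.8 with sgSik3, against 678 and 623 with sgRosa26 (log2 fold change -1.41, SE 0.09). Plxnd1, the plexin D receptor, had 9659 and 9631 with sgSik3, against 6765 and 6687 with sgRosa26 (log2 fold change 0.52, SE 0.03). Members of the same family of ligands and of receptors moved in opposite directions. In the Notch and Wnt pathways, 9 of 37 tested members rose and 3 fell, with a median log2 fold change of -0.01. The share that rose, 24.3%, was near the 23.9% of all tested genes. Notch1, a Notch receptor, had 2821 and 2766 with sgSik3, against 1619.8 and 1579.6 with sgRosa26 (log2 fold change 0.80, SE 0.04). Maml1, the coactivator of Notch, had 2127 and 1908 with sgSik3, against 1218 and 1161 with sgRosa26 (log2 fold change 0.76, SE 0.06). Notch2 changed by 0.38 and Wls, the carrier that exports Wnt proteins, by 0.54 on the log2 scale. The TGF-beta and BMP pathway had rises and no falls, as 10 of 27 tested members rose and 0 fell, with a median log2 fold change of 0.17. Bmpr1a, a BMP receptor, had 1036 and 1057 with sgSik3, against 710.2 and 727 with sgRosa26 (log2 fold change 0.54, SE 0.05). Ski and Skil, corepressors of SMAD proteins, had log2 fold changes of 0.36 and 0.47, and Smurf2, a ubiquitin ligase of the pathway, had 0.26. For sialyl-, fucosyl- and galactosyltransferases, 10 of 34 tested members rose and 11 fell, with a median log2 fold change of -0.01. St8sia4, a polysialyltransferase, had 1482 and 1492 with sgSik3, against 2774 and 2564 with sgRosa26 (log2 fold change -0.84, SE 0.05). St3gal1, a sialyltransferase of O-glycans, had 684 and 714 with sgSik3, against 1033 and 1133 with sgRosa26 (log2 fold change -0.63, SE 0.06). B4galt6, a lactosylceramide synthase, had 5665 and 5636 with sgSik3, against 3148 and 3620.0 with sgRosa26 (log2 fold change 0.74, SE 0.06). St6galnac4, a further sialyltransferase, changed by -0.58. In limma the adjusted p lay between 1.2e-06 and 0.0013 for the called genes of this set, whose groups did not overlap. 6 glycosyltransferase rises were called without guide e1. 5 Notch and Wnt rises and 6 glycosyltransferase falls were called without guide e3. 5 Notch and Wnt falls were called without sgRosa26 1. 6 Notch and Wnt falls and 1 TGF-beta fall were called without sgRosa26 2.

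Lists of the cytoskeleton and of membrane traffic were next. For granule exocytosis, SNAREs and Rab GTPases, 31 of 57 tested members rose and 3 fell, with a median log2 fold change of 0.17. Lyst, the lysosomal trafficking regulator that is mutated in beige mice, had 5875 and 5744 with sgSik3, against 2179.5 and 2219.9 with sgRosa26 (log2 fold change 1.40, SE 0.03). Rab3d, a GTPase of secretory granules, had 2488 and 2465 with sgSik3, against 1479 and 1467 with sgRosa26 (log2 fold change 0.75, SE 0.04). Rab5b, of early endosomes, and Rab8b, of vesicle transport to the surface, had log2 fold changes of 0.49 and 0.38. For tubulins, septins and myosins, 9 of 34 tested members rose and 9 fell, with a median log2 fold change of -0.01. Both shares, 26.5%, were near the 23.9% of all tested genes in either direction. Sept1, a septin, had 355 and 345 with sgSik3, against 90.3 and 94.7 with sgRosa26 (log2 fold change 1.91, SE 0.11). Sept5, a septin of secretory vesicles, had 1796 and 1711 with sgSik3, against 999.9 and 1007 with sgRosa26 (log2 fold change 0.80, SE 0.05). Tubb6, a beta-tubulin, had 1132 and 1220.5 with sgSik3, against 2065 and 1933 with sgRosa26 (log2 fold change -0.76, SE 0.05). Myl12b, a regulatory light chain of myosin, had a log2 fold change of 0.61. In autophagy and the TFEB-MiT factors, 23 of 54 tested members rose and 5 fell, with a median log2 fold change of 0.11. Bnip3l, a receptor for removal of mitochondria, had 2808 and 2637 with sgSik3, against 1535 and 1647 with sgRosa26 (log2 fold change 0.77, SE 0.05). Wipi1, a phosphoinositide-binding autophagy protein, had 732 and 733 with sgSik3, against 363 and 371 with sgRosa26 (log2 fold change 0.99, SE 0.07). Atg9b, one of the 2 mammalian ATG9 proteins, had 319 and 353 with sgSik3, against 866 and 769 with sgRosa26 (log2 fold change -1.28, SE 0.08). Atg12, a ubiquitin-like autophagy protein, changed by 0.53 on the log2 scale. The limma adjusted p of the called genes among these ran from 5.5e-08 to 2.4e-05, and in each the sgSik3 and sgRosa26 libraries did not overlap. 4 cytoskeleton falls, 14 autophagy rises and 3 autophagy falls were called without guide e1. 5 cytoskeleton falls and 3 autophagy falls were called without guide e3. 6 exocytosis falls were called without sgRosa26 1.

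Metabolic lists parted into those that fell and those that rose. For pyruvate entry and the TCA cycle, 5 of 37 tested members rose and 24 fell, with a median log2 fold change of -0.15. Idh3a, a subunit of isocitrate dehydrogenase, had 2724 and 2685 with sgSik3, against 3849 and 3749 with sgRosa26 (log2 fold change -0.49, SE 0.04). Fh1, fumarase, had 2142 and 1987 with sgSik3, against 2656 and 2667 with sgRosa26 (log2 fold change -0.37, SE 0.04). Mdh2, malate dehydrogenase, changed by -0.25 on the log2 scale. Mpc2, a subunit of the mitochondrial pyruvate carrier, was an exception, with 997 and 921 with sgSik3, against 644 and 630.3 with sgRosa26 (log2 fold change 0.59, SE 0.06). Among polyamine, arginine and glutamine enzymes, 5 of 37 tested members rose and 20 fell, with a median log2 fold change of -0.26. Odc1, the rate-limiting enzyme of polyamine synthesis, had 4225 and 4123 with sgSik3, against 5618 and 5495 with sgRosa26 (log2 fold change -0.41, SE 0.03). Srm, spermidine synthase, had 2135 and 2145 with sgSik3, against 3698 and 3456 with sgRosa26 (log2 fold change -0.74, SE 0.04). Mtap, which salvages the methylthio group left by polyamine synthesis, had 662 and 722 with sgSik3, against 1215 and 1128 with sgRosa26 (log2 fold change -0.76, SE 0.06). Got2, the mitochondrial aspartate aminotransferase, had -0.51. In each of these enzymes both guides lay below both controls. In heme synthesis and iron handling, 9 of 52 tested members rose and 18 fell, with a median log2 fold change of -0.09. Hspa9, mortalin, a mitochondrial chaperone for iron-sulfur proteins, had 7907 and 8179 with sgSik3, against 12027 and 11378 with sgRosa26 (log2 fold change -0.54, SE 0.04). Slc39a14, an importer of iron, zinc and manganese, had 466 and 498 with sgSik3, against 829.7 and 867 with sgRosa26 (log2 fold change -0.81, SE 0.06). Bach1, the heme-binding repressor, had 4136 and 4057 with sgSik3, against 2556 and 2791 with sgRosa26 (log2 fold change 0.62, SE 0.05). The iron exporter gene Slc40a1, given above, rose in the same list. The pentose phosphate pathway and glycogen list rose more often, as 17 of 33 tested members rose and 6 fell, with a median log2 fold change of 0.22. Pygl, glycogen phosphorylase, had 11764 and 11089 with sgSik3, against 5375 and 5893 with sgRosa26 (log2 fold change 1.02, SE 0.05). Gys1, glycogen synthase, had 2357 and 2329.6 with sgSik3, against 1513 and 1463 with sgRosa26 (log2 fold change 0.66, SE 0.04). H6pd, the hexose phosphate dehydrogenase of the endoplasmic reticulum, had a log2 fold change of 0.59, and Rpe, ribulose phosphate epimerase, had 0.45. Across the called genes named here, limma gave an adjusted p from 1.0e-06 to 2.2e-04, with no overlap of the groups. 2 TCA rises, 2 polyamine rises and 3 pentose phosphate falls were called without guide e1. 3 polyamine rises and 3 pentose phosphate falls were called without guide e3.

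Of the lipid lists, sphingolipid and phospholipid enzymes rose more often than the background and fatty acid oxidation lay close to it. Among the sphingolipid and phospholipid enzymes, 22 of 53 tested members rose and 8 fell, with a median log2 fold change of 0.11. Sgms2, a sphingomyelin synthase, had 18353 and 18446 with sgSik3, against 10291 and 10703 with sgRosa26 (log2 fold change 0.81, SE 0.03). Cers6, a ceramide synthase, had 2312 and 2349 with sgSik3, against 1338 and 1463 with sgRosa26 (log2 fold change 0.74, SE 0.05). Pld1, a phospholipase D, had 1106 and 1105 with sgSik3, against 605 and 675 with sgRosa26 (log2 fold change 0.79, SE 0.06). Sgpp1, a phosphatase of sphingosine phosphate, changed by 0.42 on the log2 scale. For fatty acid oxidation and peroxisomes, 15 of 61 tested members rose and 10 fell, with a median log2 fold change of -0.00. Acsl1, an acyl-CoA synthetase, had 3722 and 3534 with sgSik3, against 2508 and 2403 with sgRosa26 (log2 fold change 0.56, SE 0.04). Scp2, a peroxisomal thiolase and lipid carrier, had a log2 fold change of 0.51, Crot, the peroxisomal carnitine acyltransferase, had 0.50 and Abcd2, a peroxisomal transporter, had 0.53. In limma the adjusted p lay between 4.5e-07 and 7.4e-05 for the called genes of this set, whose groups did not overlap. 5 fatty acid oxidation falls and 5 sphingolipid falls were called without guide e1. 9 fatty acid oxidation rises and 5 sphingolipid falls were called without guide e3.

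Lists of nuclear transport and RNA production came next. For nuclear pore proteins and karyopherins, 2 of 57 tested members rose and 41 fell, with a median log2 fold change of -0.22. Kpnb1, importin beta, the main import receptor, had 12708 and 12478 with sgSik3, against 15887 and 15676 with sgRosa26 (log2 fold change -0.33, SE 0.03). Ipo5, an importin of ribosomal proteins and histones, had 6381 and 6403 with sgSik3, against 8920.4 and 8526 with sgRosa26 (log2 fold change -0.45, SE 0.03). Ipo4 and Ipo7 are importins too. Ipo4 had 741 and 743 with sgSik3, against 1124 and 1137 with sgRosa26 (log2 fold change -0.61, SE 0.05), and Ipo7 had 5195 and 5088 with sgSik3, against 6516 and 6569 with sgRosa26 (log2 fold change -0.35, SE 0.03). The 2 guides differed little in these importins, and all fell by less than 2-fold. Among tRNA modification and processing enzymes, 0 of 76 tested members rose and 48 fell, with a median log2 fold change of -0.24. Nsun2, a cytosine methyltransferase of tRNA, had 5125 and 4999.8 with sgSik3, against 7819.8 and 7657 with sgRosa26 (log2 fold change -0.61, SE 0.03). Pus7, a pseudouridine synthase, had 925 and 954 with sgSik3, against 1667 and 1588 with sgRosa26 (log2 fold change -0.79, SE 0.05). Elac2, which trims the 3′ end of tRNA precursors, had 927 and 861 with sgSik3, against 1308 and 1318 with sgRosa26 (log2 fold change -0.55, SE 0.05). Ikbkap, the scaffold of Elongator, had -0.36 on the log2 scale. In the subunits and factors of RNA polymerases I and III, 2 of 46 tested members rose and 28 fell, with a median log2 fold change of -0.21. Polr1b, the second largest subunit of polymerase I, had 1062 and 1064 with sgSik3, against 1755 and 1824 with sgRosa26 (log2 fold change -0.75, SE 0.04). Polr1c, a subunit shared by polymerases I and III, had 625 and 584 with sgSik3, against 859 and 903 with sgRosa26 (log2 fold change -0.54, SE 0.06). Polr3e, a subunit of polymerase III, had 1282 and 1370.0 with sgSik3, against 1762 and 1748 with sgRosa26 (log2 fold change -0.40, SE 0.05). Polr2e, shared by all nuclear polymerases, changed by -0.43. For SR proteins, hnRNPs and splicing regulators, 10 of 66 tested members rose and 24 fell, with a median log2 fold change of -0.08, although 3 of the 4 members of lowest p rose. Ptbp3, a repressor of exon use that is abundant in blood cells, had 20920.2 and 20612 with sgSik3, against 15938 and 15486 with sgRosa26 (log2 fold change 0.40, SE 0.03). Srpk1, an SR protein kinase, had 2164 and 2244 with sgSik3, against 2765 and 2758 with sgRosa26 (log2 fold change -0.33, SE 0.04). Srpk2, its paralog, changed by 0.45 and Mbnl2, a muscleblind splicing factor, by 0.28. The limma adjusted p of the called genes among these ran from 1.9e-06 to 2.5e-04, and in each the sgSik3 and sgRosa26 libraries did not overlap. 1 nuclear pore rise, 27 tRNA falls, 0 polymerase rises, 17 polymerase falls and 13 splicing falls were called without guide e1. 1 nuclear pore rise, 31 tRNA falls, 1 polymerase rise and 15 splicing falls were called without guide e3. 2 tRNA rises and 4 polymerase rises were called without sgRosa26 1. 1 nuclear pore rise and 1 tRNA rise were called without sgRosa26 2.

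**Figure D4:**
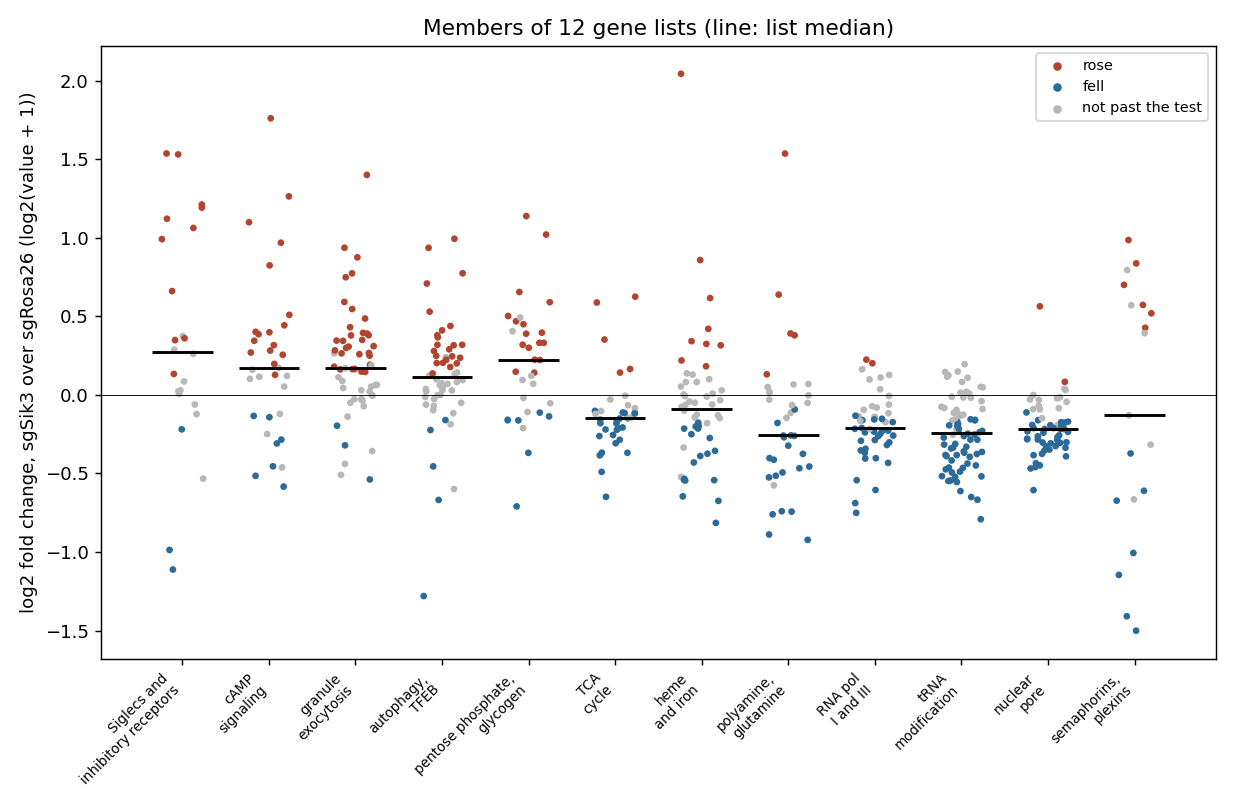
Log2 fold change, sgSik3 over sgRosa26, of every tested member of 12 lists, with red points for rises, blue points for falls, grey points for members not past the test and a black line at each list's median. Points of the nuclear pore, tRNA and polymerase lists crowd below 0, with medians of -0.22, -0.24 and -0.21, whereas the Siglec, cAMP and guidance lists spread over a wide range.

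The promoters of Ipo4, Ipo7, Pus7 and Polr3e are shown because they are members of the falling lists whose promoter holds an E-box, CACGTG, the motif of MYC and its relatives, in capitals. An E-box reads the same on both strands and stood in 15.5% of the promoters of the nuclear pore list, 14.7% of the tRNA list and 16.7% of the polymerase list. Lists that did not fall held it as often or more often, with 17.9% of the exocytosis list, 17.8% of the calcium list and 26.3% of the TNF list. The share was 12.7% of 2557 promoters of all genes that fell, 9.03% of 2701 of those that rose and 10.0% over all tested genes. The core of a cAMP response element, TGACGT on either strand, stood in 15 of 75 promoters of the tRNA list and in 24.4% of those of the TCA list, and in 16 of 80 of the splicing list and 3 of 15 of the KLF list, against 11.9% over all tested genes, 3.35% where genes rose over 2-fold and 6.13% where they fell over 2-fold. Counted over all called genes of any size of change, it stood in 13.9% for falls and 9.44% for rises. A half-palindrome of C/EBP factors, TTGCGCA on either strand, stood in 2.09% of promoters of genes that rose over 2-fold, 2.45% of those that fell over 2-fold and 3.67% of all. Over all called genes its share was 4.58% for falls and 2.07% for rises. An E-box and a cAMP element core can share the letters at their ends, and a promoter with several motifs was counted under each. These shares are descriptions with no test. The windows lie at chr14:55635635-55635934, minus strand for Ipo4, chr7:110018065-110018364, plus strand for Ipo7, chr5:23783662-23783961, minus strand for Pus7 and chr7:120917528-120917827, plus strand for Polr3e, in GRCm38.p6 from RefSeq.
Ipo4: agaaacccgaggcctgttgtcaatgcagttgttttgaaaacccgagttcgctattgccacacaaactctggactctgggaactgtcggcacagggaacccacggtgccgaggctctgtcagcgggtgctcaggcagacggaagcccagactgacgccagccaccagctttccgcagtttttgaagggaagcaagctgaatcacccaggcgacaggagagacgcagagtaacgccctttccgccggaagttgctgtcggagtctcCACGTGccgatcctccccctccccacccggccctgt
Ipo7: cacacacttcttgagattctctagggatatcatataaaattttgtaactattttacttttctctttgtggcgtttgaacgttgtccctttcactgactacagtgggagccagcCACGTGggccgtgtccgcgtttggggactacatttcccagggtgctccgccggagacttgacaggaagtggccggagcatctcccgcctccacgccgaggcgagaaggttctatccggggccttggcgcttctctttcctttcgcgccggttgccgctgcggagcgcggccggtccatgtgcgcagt
Pus7: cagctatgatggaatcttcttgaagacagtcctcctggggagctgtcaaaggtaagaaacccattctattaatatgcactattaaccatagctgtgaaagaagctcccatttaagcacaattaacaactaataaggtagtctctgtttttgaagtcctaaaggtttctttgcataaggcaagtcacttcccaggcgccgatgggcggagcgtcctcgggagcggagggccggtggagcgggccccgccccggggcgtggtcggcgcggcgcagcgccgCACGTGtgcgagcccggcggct
Polr3e: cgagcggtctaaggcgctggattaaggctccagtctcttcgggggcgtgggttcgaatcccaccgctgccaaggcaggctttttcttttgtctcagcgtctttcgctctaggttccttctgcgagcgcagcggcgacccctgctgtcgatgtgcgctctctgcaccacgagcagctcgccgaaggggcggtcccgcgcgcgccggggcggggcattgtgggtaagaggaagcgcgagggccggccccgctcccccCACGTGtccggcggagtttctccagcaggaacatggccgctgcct

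Chromatin lists lay at or below the background. In Polycomb, DNA methylation and TET enzymes, 9 of 50 tested members rose and 12 fell, with a median log2 fold change of 0.05. Jarid2, a Polycomb cofactor, had 4806 and 4754 with sgSik3, against 3567 and 3667 with sgRosa26 (log2 fold change 0.40, SE 0.03). Pcgf6, a subunit of a variant Polycomb complex, had 253 and 235 with sgSik3, against 421 and 399 with sgRosa26 (log2 fold change -0.75, SE 0.09). Pcgf5 and Asxl1, further Polycomb group proteins, had log2 fold changes of 0.56 and 0.31. For chromatin remodelers and histone acetylation enzymes, 17 of 71 tested members rose and 11 fell, with a median log2 fold change of 0.03. Kat2a, the acetyltransferase GCN5, had 1666 and 1652 with sgSik3, against 2177 and 2261 with sgRosa26 (log2 fold change -0.42, SE 0.04). Chd2 and Chd7, remodeling helicases, had log2 fold changes of 0.34 and 0.33. In DNA repair, 10 of 79 tested members rose and 17 fell, with a median log2 fold change of -0.05. Parp1, a sensor of DNA breaks, had 4869 and 4939.7 with sgSik3, against 6564 and 6279.6 with sgRosa26 (log2 fold change -0.39, SE 0.03). Atm, a kinase of the break response, had 1975 and 2005 with sgSik3, against 2431 and 2460.2 with sgRosa26 (log2 fold change -0.30, SE 0.04). Atr, its relative, changed by -0.35 and Apex1, a base excision endonuclease, by -0.43. Across the called genes named here, limma gave an adjusted p from 2.0e-05 to 2.2e-04, with no overlap of the groups. 5 Polycomb rises, 5 Polycomb falls, 11 remodeler rises, 6 remodeler falls and 10 repair falls were called without guide e1. 5 Polycomb rises, 5 Polycomb falls, 11 remodeler rises, 6 remodeler falls, 6 repair rises and 10 repair falls were called without guide e3.

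Lists of transcription factors were small. Among circadian clock genes, 5 of 22 tested members rose and 2 fell, with a median log2 fold change of 0.07. The share of clock genes that rose, 22.7%, was near the 23.9% of all tested genes. Per2, a repressor of the clock, had 820.2 and 925 with sgSik3, against 369 and 382 with sgRosa26 (log2 fold change 1.21, SE 0.08). Per3, its paralog, had 597 and 585 with sgSik3, against 349 and 314 with sgRosa26 (log2 fold change 0.83, SE 0.08). Csnk1e, the casein kinase that marks PER proteins, and Btrc, a subunit of a ubiquitin ligase, changed by 0.36 and 0.27. For KLF and SP factors, 7 of 15 tested members rose and 2 fell, with a median log2 fold change of 0.23. Klf3, a repressor of the family, had 476 and 479 with sgSik3, against 237 and 225 with sgRosa26 (log2 fold change 1.04, SE 0.08). Klf16, a zinc finger factor, had 323 and 308 with sgSik3, against 478 and 459 with sgRosa26 (log2 fold change -0.57, SE 0.08). Klf13 and Sp3 had log2 fold changes of 0.28 and 0.23. Among ETS factors, 9 of 19 tested members rose and 1 fell, with a median log2 fold change of 0.09. Spi1, which encodes PU.1, had 7550.4 and 7150.3 with sgSik3, against 5510.4 and 5475 with sgRosa26 (log2 fold change 0.42, SE 0.04). Erg, an ETS factor of stem cells, had 1821 and 1808 with sgSik3, against 1165 and 1231 with sgRosa26 (log2 fold change 0.60, SE 0.05). Elf4 and Ets2 changed by 0.44 and 0.38. For nuclear receptors, 8 of 15 tested members rose and 1 fell, with a median log2 fold change of 0.16. Rara, a retinoic acid receptor, had 350.3 and 355 with sgSik3, against 273 and 208 with sgRosa26 (log2 fold change 0.56, SE 0.12). Nr1h2, an oxysterol receptor, had 0.23, Nr2c2, an orphan receptor, had 0.22 and Nr3c1, the glucocorticoid receptor, had 0.21 on the log2 scale. Nr3c1 no longer passed without guide e3 (adjusted p = 0.057), nor did Rara without a mean-variance trend (0.054). In limma the adjusted p lay between 3.8e-06 and 0.0053 for the called genes of this set, whose groups did not overlap. 0 clock falls, 4 nuclear receptor rises and 0 nuclear receptor falls were called without guide e1. 0 clock falls, 1 KLF fall and 5 nuclear receptor rises were called without guide e3. 1 clock fall was called without sgRosa26 1. 4 clock falls were called without sgRosa26 2.

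Markers of blasts and progenitors and of other blood cells were followed for the composition of the cultures. Counts of these lists stand beside 23.9% of all tested genes that rose and 23.9% that fell. Of 12 tested blast markers, 8 rose and 1 fell, and Cd34, Hoxa9 and Csf1r did not pass the test. Their summed normalized value was 123425 and 123444 with sgSik3, against 88949.7 and 94146 with sgRosa26. Itgam and Cd33, the latter given above, had the largest differences in normalized value, so the sum does not stand for every marker. Itgam, the integrin CD11b, had 31612 and 31287 with sgSik3, against 19338 and 20705 with sgRosa26 (log2 fold change 0.65, SE 0.04). Meis1, a cofactor of HOXA9, had 1402 and 1428 with sgSik3, against 968 and 936 with sgRosa26 (log2 fold change 0.57, SE 0.05). Flt3, the marker that fell, was low in every library. Flt3, a growth factor receptor, had 7.78 and 4.37 with sgSik3, against 22.6 and 17.95 with sgRosa26 (log2 fold change -1.62, SE 0.40). Flt3 did not pass without guide e3 (adjusted p = 0.056) or with DESeq2 (0.084). Of 12 megakaryocyte markers 5 were tested, 1 rose and 2 fell, and the summed value was 658 and 773 with sgSik3, against 2070.4 and 2468 with sgRosa26, most of it Itgb3. Itga2b, the partner of Itgb3, had 137 and 139.7 with sgSik3, against 85.6 and 112 with sgRosa26 (log2 fold change 0.50, SE 0.16) and lost its call without e1 (adjusted p = 0.11), without e3 (0.13), without sgRosa26 1 (0.12), with DESeq2 (0.14), without the filter (0.052) or without the trend (0.068). Vwf had 80.8 and 96.1 with sgSik3, against 118 and 148 with sgRosa26 (log2 fold change -0.58, SE 0.16) and did not pass without e1 (0.13), without sgRosa26 2 (0.064), with DESeq2 (0.085) or without the trend (0.058). Gp1bb, which did not pass with all libraries (0.16), passed only without sgRosa26 2 (0.0069). Mast cell and basophil markers had 5 tested, with 1 rise and 1 fall, and summed to 7239 and 7083 with sgSik3, against 4127 and 5478 with sgRosa26. Hdc, histidine decarboxylase, had 5162 and 4967 with sgSik3, against 1843 and 2098 with sgRosa26 (log2 fold change 1.36, SE 0.06). Cpa3, a carboxypeptidase, had 323 and 349 with sgSik3, against 614 and 1548 with sgRosa26 (log2 fold change -1.53, SE 0.32). Cpa3 did not pass without the trend (adjusted p = 0.084). The erythroid list had 2 tested members, 0 rises and 1 fall, Tfrc, the transferrin receptor of dividing cells, at -0.21 (adjusted p = 0.067 without the trend), and summed to 8129 and 8048 with sgSik3, against 8959 and 9824 with sgRosa26. Of the T and NK cell markers only Nkg7, a granule membrane protein, was high enough to test, with 213 and 188 with sgSik3, against 68.7 and 78.8 with sgRosa26 (log2 fold change 1.43, SE 0.14), and that list summed to 215 and 191 with sgSik3, against 69.6 and 80.8 with sgRosa26. B cell markers had 0 of 10 tested and summed to 28.2 and 33.8 with sgSik3, against 31.98 and 27.9 with sgRosa26. Dendritic cell markers had 3 tested with 0 rises and 2 falls, Flt3 and Bst2, and summed to 707 and 687 with sgSik3, against 881 and 883 with sgRosa26. Of fibroblast and endothelium markers 2 were tested, Pdgfrb rose (log2 fold change 0.30, SE 0.06) without holding when e3 was left out (adjusted p = 0.053), and the sum was 7719 and 7804 with sgSik3, against 7417 and 7561 with sgRosa26. The limma adjusted p of the called genes among these ran from 5.8e-07 to 0.027, and in each the sgSik3 and sgRosa26 libraries did not overlap. 0 megakaryocyte-marker rises and 1 megakaryocyte-marker fall were called without guide e1. 0 blast-marker falls, 0 megakaryocyte-marker rises, 1 dendritic-marker fall and 0 stroma-marker rises were called without guide e3. 2 blast-marker falls and 0 megakaryocyte-marker rises were called without sgRosa26 1. 2 megakaryocyte-marker rises, 1 megakaryocyte-marker fall and 2 mast-marker rises were called without sgRosa26 2. The part of any of these cell types in the results above was not tested.

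A scan over all families that share the letters of a gene symbol gave 129 stems with at least 10 tested genes. It was not guided by the lists, and stems can join unrelated genes. Some stems share genes with the lists above, among them Nup with nuclear pore, St with glycosyltransferases, Pde with cAMP signaling and Rgs with RGS proteins. Results of those stems and lists are therefore not independent of each other. Counts of each stem stand beside 23.9% of all tested genes that rose and 23.9% that fell. The 6 lowest medians were those of the stems St, Timm, Exosc, Mrpl, Nup and Naa. Of the St stem, which is mainly sialyltransferases, 15 were tested, 1 rose and 7 fell, with a median of -0.29. Of Timm genes, which import proteins into mitochondria, 13 were tested, 0 rose and 8 fell, with a median of -0.29. For subunits of the RNA exosome (Exosc), 10 were tested, 0 rose and 9 fell, with a median of -0.28. Timm13 had 1225 and 1209.6 with sgSik3, against 1615 and 1601 with sgRosa26 (log2 fold change -0.40, SE 0.04). Exosc8 had 1664 and 1677 with sgSik3, against 2032 and 2077 with sgRosa26 (log2 fold change -0.30, SE 0.04). Among mitochondrial ribosomal proteins of the large subunit (Mrpl), 48 were tested, 0 rose and 32 fell, with a median of -0.25. Mrpl12 had 1823 and 1737 with sgSik3, against 2508 and 2625 with sgRosa26 (log2 fold change -0.53, SE 0.04). Of nucleoporins named Nup, 20 were tested, 1 rose and 15 fell, with a median of -0.24. Nup205, a scaffold nucleoporin, had 5563 and 5460.5 with sgSik3, against 6902 and 6553 with sgRosa26 (log2 fold change -0.29, SE 0.04). Of N-terminal acetyltransferase genes (Naa), 11 were tested, 1 rose and 7 fell, with a median of -0.24. Naa50 and Naa15 had log2 fold changes of -0.31 and -0.27. The highest median was that of the C-type lectins (Clec), of which 14 were tested, 8 rose and 1 fell, with a median of 0.44. Clec5a, an activating lectin of myeloid cells, had 5346 and 5314 with sgSik3, against 3621 and 3804 with sgRosa26 (log2 fold change 0.52, SE 0.04). Clec10a, a galactose-binding lectin of macrophages, had 117 and 94.97 with sgSik3, against 209.8 and 248 with sgRosa26 (log2 fold change -1.11, SE 0.14). Under the stem S, mostly S100 proteins, with sphingosine phosphate receptors among them, 11 were tested, 7 rose and 3 fell, with a median of 0.41. S100a11 had 6000.4 and 5626 with sgSik3, against 3209 and 3161 with sgRosa26 (log2 fold change 0.87, SE 0.04). Of phosphodiesterases (Pde), 15 were tested, 8 rose and 2 fell, with a median of 0.28, and of Arhgef exchange factors, 13 were tested, 8 rose and 2 fell, with a median of 0.26. Arhgef6, the exchange factor alpha-PIX, had 8857 and 8960.3 with sgSik3, against 7242 and 7500.3 with sgRosa26 (log2 fold change 0.27, SE 0.03). For Rgs genes 10 were tested, 5 rose and 1 fell, with a median of 0.26. Rgs5 had 232 and 209 with sgSik3, against 65.8 and 86.8 with sgRosa26 (log2 fold change 1.53, SE 0.16). Of the Dnajb cochaperones, 10 were tested, 4 rose and 1 fell, with a median of 0.24. Dnajb9, a cochaperone of the endoplasmic reticulum, had 762 and 759.8 with sgSik3, against 601 and 590.4 with sgRosa26 (log2 fold change 0.35, SE 0.06). Dnajb11, a further one, fell (-0.17) and did not pass without e3 (adjusted p = 0.055) or without the trend (0.053). Across the called genes named here, limma gave an adjusted p from 9.2e-07 to 0.0042, with no overlap of the groups. Without guide e1 there were 5 Clec rises, 2 Dnajb rises and 1 Arhgef fall, and neither the St nor the Nup stem had a rise. Without guide e3 there were 21 Mrpl falls, 5 Clec rises, 1 Arhgef fall and no Dnajb fall, and again no St or Nup rise. Without sgRosa26 1 there were 4 Clec falls.

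**Figure D5:**
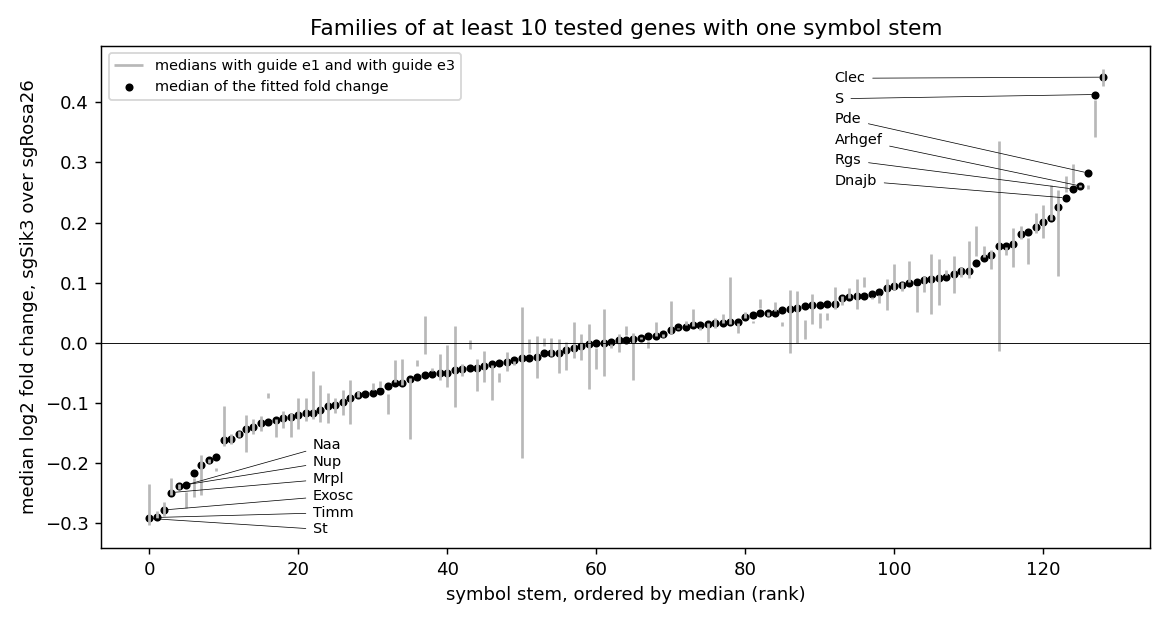
Median log2 fold change, sgSik3 over sgRosa26, of 129 symbol stems ordered from lowest to highest, with black points for the fitted fold change and grey lines between the medians obtained with guide e1 and with guide e3. Stems named are the 6 lowest, from St at -0.29 to Naa at -0.24, and the 6 highest, from Dnajb at 0.24 to Clec at 0.44.

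Where the guides differed most, values were low. With 1 library a guide these differences had no test. Above e3 with e1 were Fyn, a Src family kinase, with 38.9 and 21.8 with sgSik3, against 72.4 and 79.8 with sgRosa26 (e1 minus e3 0.81, sgRosa26 1 minus sgRosa26 2 -0.14 on the log2 scale), and Pkib, an inhibitor of protein kinase A, with 154 and 105 with sgSik3, against 214 and 198 with sgRosa26 (e1 minus e3 0.55, sgRosa26 1 minus sgRosa26 2 0.11). Both genes fell in the test with the guides combined. Mgst3, a microsomal glutathione transferase, had 83.7 and 53.5 with sgSik3, against 73.4 and 79.8 with sgRosa26 (e1 minus e3 0.64, sgRosa26 1 minus sgRosa26 2 -0.12), and Zfp248, a zinc finger gene, had 59.4 and 38.2 with sgSik3, against 73.4 and 84.8 with sgRosa26 (e1 minus e3 0.62, sgRosa26 1 minus sgRosa26 2 -0.21). Gpr34, given above, had a difference of 0.65 between e1 and e3. Above e1 with e3 were Lama5, a laminin chain, with 29.2 and 50.2 with sgSik3, against 73.4 and 91.7 with sgRosa26 (e1 minus e3 -0.76, sgRosa26 1 minus sgRosa26 2 -0.32), and Hrh2, the histamine H2 receptor, with 49.6 and 82.97 with sgSik3, against 135 and 157 with sgRosa26 (e1 minus e3 -0.73, sgRosa26 1 minus sgRosa26 2 -0.21). Hoxb4, a homeobox factor of stem cells, had 35.03 and 60.04 with sgSik3, against 61.1 and 43.9 with sgRosa26 (e1 minus e3 -0.76, sgRosa26 1 minus sgRosa26 2 0.47), and E2f5, a repressive E2F factor, had 53.5 and 88.4 with sgSik3, against 103 and 92.7 with sgRosa26 (e1 minus e3 -0.71, sgRosa26 1 minus sgRosa26 2 0.14). Foxo1, a forkhead factor held by AKT, had 54.5 and 89.5 with sgSik3, against 86.5 and 49.9 with sgRosa26 (e1 minus e3 -0.71, sgRosa26 1 minus sgRosa26 2 0.78), so its control libraries differed more than its guides. Mgst3, Hoxb4, E2f5 and Foxo1 did not pass the limma test against sgRosa26, with adjusted p of 0.51, 0.65, 0.11 and 0.84.

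The same cells with a guide to Mef2c gave a direct comparison of the knockouts on recovered reads, scaled here to a common depth. sgMef2c had 2 libraries, also of day 2, and shared its control libraries with sgSik3. edgeR quasi-likelihood tests called 1047 of 10954 genes (9.56%), 588 higher with sgSik3 (5.37%) and 459 lower (4.19%). That count rested on both Sik3 guides, since it was 51 without e1 and 54 without e3. Without sgMef2c 1 the genes called lower numbered 259. Tgm2, a transglutaminase, had 297 and 290.4 with sgSik3, 116 and 105 with sgMef2c and 81.6 and 95.1 with sgRosa26 (log2 fold change 1.40, adjusted p = 2.4e-04). Pde7b, a phosphodiesterase of cAMP, had 142 and 163 with sgSik3, 49.99 and 48.6 with sgMef2c and 61.9 and 83.7 with sgRosa26 (log2 fold change 1.62, adjusted p = 0.0012). Il1rn, the interleukin-1 receptor antagonist, had 914 and 917 with sgSik3, 275 and 452 with sgMef2c and 214 and 257 with sgRosa26 (log2 fold change 1.35, adjusted p = 0.0027). Clec4n, Dectin-2, had 88.97 and 111 with sgSik3, 28.9 and 40.3 with sgMef2c and 16.7 and 38.2 with sgRosa26 (log2 fold change 1.53, adjusted p = 0.013). These 4 were above the controls with sgSik3 in every library. Arl4c, a small GTPase, had 84.03 and 92.7 with sgSik3, 36.8 and 31 with sgMef2c and 70.8 and 63.03 with sgRosa26 (log2 fold change 1.37, adjusted p = 0.0032). B3gnt5, a glycolipid glycosyltransferase, had 132 and 124 with sgSik3, 60.5 and 40.3 with sgMef2c and 139 and 237 with sgRosa26 (log2 fold change 1.33, adjusted p = 0.023). Arl4c and B3gnt5 did not pass against sgRosa26 with sgSik3 (limma adjusted p = 0.059 and 0.11). Hpgd, the enzyme that inactivates prostaglandins, had 1065 and 1157 with sgSik3, 3686 and 3136 with sgMef2c and 6739 and 11556 with sgRosa26 (log2 fold change -1.62, adjusted p = 0.0034). Itgb3, an integrin beta chain, had 384 and 495 with sgSik3, 1199.9 and 1117 with sgMef2c and 1915 and 2243 with sgRosa26 (log2 fold change -1.41, adjusted p = 2.3e-04). Slco4a1, an organic anion transporter, had 547 and 656 with sgSik3, 1548 and 1387 with sgMef2c and 1662 and 1737 with sgRosa26 (log2 fold change -1.29, adjusted p = 4.0e-05). These 3 were lower with sgSik3 than with sgMef2c and the controls. Col4a1, a chain of collagen IV, had 34.6 and 48.02 with sgSik3, 105 and 89.9 with sgMef2c and 117 and 138 with sgRosa26 (log2 fold change -1.26, adjusted p = 0.0067). Camp, the cathelicidin of neutrophil granules, had 276 and 264 with sgSik3, 449.9 and 1018 with sgMef2c and 81.6 and 141 with sgRosa26 (log2 fold change -1.43, adjusted p = 0.029). Stfa2, a stefin with near copies, had 519 and 467 with sgSik3, 853 and 1847 with sgMef2c and 208 and 249 with sgRosa26 (log2 fold change -1.44, adjusted p = 0.019). Camp and Stfa2 were above the controls with both knockouts, and higher with sgMef2c. Clec4n, Arl4c, Il1rn, B3gnt5, Hpgd, Stfa2, Camp and Col4a1 no longer passed without e1 or without e3. Clec4n also lost its call without sgMef2c 1 (adjusted p = 0.055), B3gnt5 without sgMef2c 2 (0.083) and Camp with DESeq2 (0.12).

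Read by list, the direct test of sgSik3 over sgMef2c gave 0 higher and 13 lower of 57 tested nuclear pore and karyopherin members, 8 higher and 1 lower of 24 Siglecs and inhibitory receptors, 6 higher and 0 lower of 23 tetraspanins and MS4A proteins, 7 higher and 3 lower of 33 cAMP signaling genes and 7 higher and 0 lower of 12 blast markers. The shares of all genes were 5.37% higher and 4.19% lower. These counts rested on both Sik3 guides too. Without e1, as without e3, 0 nuclear pore members, 2 Siglec-list members, 0 tetraspanins and 1 blast marker passed, and for cAMP signaling 3 higher and 1 lower passed without e1 and 4 higher and 1 lower without e3. Without sgMef2c 1 there were 4 nuclear pore falls, 5 higher and 2 lower in the Siglec list, 4 higher and 1 lower tetraspanins, 4 higher cAMP genes and 4 higher blast markers. Without sgMef2c 2 the Siglec list had no lower member.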

How the data were processed

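PolyA RNA was sequenced from RN2c cells with a TruSeq v2 kit, which does not mark strand, so overlapping genes cannot be told apart. HISAT2 and featureCounts with mm10, and DESeq2, are listed per the submitters' processing notes, without versions. The authors deposited DESeq2-normalized values, a signal on a linear scale that divides each gene's reads by a size factor, and normalized the sgSik3 table apart from the others. Dividing by the smallest nonzero value gave whole reads for 100.0% of values (largest deviation 5.2e-10 reads). The control libraries held the same recovered reads in the sgSik3 and sgMef2c tables.

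Genes averaging 10 or more were tested in R 4.3.3 with limma 3.58.1 (eBayes, trend, two-sided) on log2(value + 1), adjusted by Benjamini and Hochberg over all of them, at a threshold of 0.05. Log2 fold changes on this scale understate the change of low genes. Recovered reads were also tested with edgeR 4.0.16 (quasi-likelihood) and DESeq2 1.42.0 as alternatives, and edgeR with TMM factors on the 6 RN2c libraries gave sgSik3 over sgMef2c. The fits were tested on simulated data. Far fewer genes changed in that simulation than were called here, and its libraries varied independently with a fixed spread. It therefore does not bear on the number of calls. Other alternatives were pseudocounts of 0.5 and 5, a minimum mean of 1 or none, TMM factors, no trend and each library left out. Reads of the 2 guides differed by a chi-square over degrees of freedom of 1.74 and those of the controls by 4.34, so each library was counted once.

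The lists, the comparisons and the rules were chosen with earlier results of these data known. Named were Sik3, the rises and falls ranked 11 to 25 by log2 fold change (called, averaging 50 or more, groups not overlapping, no predicted or unnamed models), up to 4 members of lowest p of each list, the 5 widest guide differences on each side, the 6 largest changes on each side of the direct test, and members of the 6 highest and 6 lowest symbol stems. Ghr, for its promoter, and Rgs1 were chosen after their values were seen. Promoter sequences are RefSeq's for GRCm38.p6, found by symbol for 8510 of 10934 tested genes. A list and some genes of other lists are not reported here.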

Additional observations from a re-analysis of the deposited data

How the results depend on the processing

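No paired analysis was possible because the groups share a single number, guides e1 and e3 standing against controls 1 and 2. For sgSik3 against sgRosa26 the number of genes called lower was 1730 with DESeq2, and total calls stayed within 1.5 times of 5226 in every other setting, from 3535 with DESeq2 to 5458 without sgRosa26 2. With a library left out, the log2 fold change of Mcpt8 ranged from -0.0017 without sgRosa26 1 to 0.30 without sgRosa26 2, and that of Itgax from -0.14 to 0.22, so both changed sign without sgRosa26 1. Neither passed in a fit with both controls, and Mcpt8 passed without sgRosa26 2 (adjusted p = 0.043). Of 82 counts of list members, 29 moved by more than 1.5 times with DESeq2, 23 without a mean-variance trend, 31 without e1 and 30 without e3, and the cause was not tested for the settings that keep all libraries. For sgSik3 against sgMef2c, DESeq2 called 598 genes, 381 higher and 217 lower, 21 of them over 2-fold higher. With a library left out, the genes called ranged from 51 to 917, those higher from 41 to 502 and those lower from 9 to 415, with 7 to 40 over 2-fold higher and 4 to 32 over 2-fold lower. Those fits hold fewer libraries, and a lone library is assumed to vary like the others. With 2 libraries a group, small changes of low genes are not resolved at this depth.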
